A study of Mus musculus with 6 samples.

Results

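The genes described are the nuclear-encoded subunits of oxidative phosphorylation, the 5 protein complexes of the inner mitochondrial membrane that turn the oxidation of NADH and succinate into ATP. They were taken by gene symbol from the deposited expression table, as protein-coding genes whose symbols begin with Nduf and a, b, c, s or v, with Uqcr, with Cox and a numeral of 4 to 8 or with Atp5, together with Sdha to Sdhd. The rule found 85 of 21914 symbols, 36 of complex I, 4 of complex II, 8 of complex III, 19 of complex IV and 15 of complex V. Another 3, Atp5s, Atp5sl and Cox7a2l, carry such names without being standing subunits of a complex. A gene was kept for comparisons where it reached 1 FPKM (fragments per unit of gene length and of library size) in at least 2 libraries, which 81 of the 85 and 10818 genes in all did. The 4 left out were Cox7b2, Cox8b and Cox8c, listed at 0 throughout, and Ndufa4l2. The mitochondrially encoded subunits are not among the 85.

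The values come from dendritic cells, which show antigen to T cells and activate them, sorted by flow cytometry from C57BL/6 mice. All the mice were germ-free and Rag KO, so that every group, the un-injected one included, lacked microbes and T and B lymphocytes of its own. Mice given naive CD4 T cells 1 week before, mice given regulatory T cells (Treg) 1 week before and un-injected mice were each sampled in peripheral lymph node and in spleen. Each of these 6 groups is 1 library, which leaves no error inside a group, and a difference inside a tissue has no replicate check. Which Rag gene was deleted, how many mice a library pools, the gate of the sort and whether the 2 tissues come from the same mice is stated in none of the sources used here.

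Complex I (NADH dehydrogenase) and complex II (succinate dehydrogenase, which is also an enzyme of the tricarboxylic acid cycle) pass electrons to ubiquinone. Complex III passes them on to cytochrome c and complex IV (cytochrome c oxidase) to oxygen. The proton gradient built by complexes I, III and IV drives complex V, the ATP synthase. Resting dendritic cells are known to rely on this route, and strong activation is known to shift them towards glycolysis.

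All 8 listed dendritic cell markers passed the filter, but their levels differed between the libraries, as did those of genes of other cells and states. In lymph node Zbtb46, Flt3, Batf3 and Irf4 were lowest in the naive library. Itgax, H2-Ab1 and Cd74 were lowest in the un-injected one and Irf8 with Treg. Zbtb46 was at 17.1, 30.8 and 49.8 FPKM in the naive, Treg and un-injected lymph node libraries, and Itgax at 196, 134 and 39.7 FPKM. The summed level of 9 monocyte markers was 12035, 1732 and 339.9 FPKM in the naive, Treg and un-injected lymph node libraries and 2541, 2425 and 4689 FPKM in the spleen libraries. The neutrophil markers, 6 of 10 of them past the filter, summed to 65.6, 6.6045 and 19.5 FPKM in lymph node and 31.6, 14.6 and 841 FPKM in spleen. Csf3r alone held 45.9 FPKM of the naive lymph node sum. Genes of mature or migratory dendritic cells summed to 3003, 7161 and 17178 FPKM in lymph node and 1842, 1562 and 1768 FPKM in spleen. Cd83 alone held 1077, 1086 and 1201 FPKM of the spleen sums. Each of the other genes of that list was higher in naive than in Treg spleen, such as Ccr7 at 508 against 312 FPKM. The T cell markers stayed at 3.74 to 9.33 FPKM in sum, with 2 of 8 past the filter. The values of all genes summed to between 552580 and 861260 FPKM, the highest in the un-injected spleen library. Since these are bulk libraries, fewer cells of a type and less RNA per cell cannot be told apart in anything that follows.

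The sequences just upstream of the RefSeq starts of 6 of the genes are printed because these genes make up the contrasts the results turn on. They are the 3 genes for the same ATP synthase subunit c, whose levels went different ways in lymph node, Cox7a2 and its relative Cox7a2l, which did so too, and Ndufa5, the complex I gene with the highest naive to un-injected ratio in lymph node. Each line holds the 250 bases before the gene's start from RefSeq on GRCm38.p6, 5′ to 3′, all on the minus strand. The gene coordinates given further below come from the GENCODE annotation, whose gene starts can differ from those of RefSeq. The printed bases of Atp5g2, Ndufa5 and Cox7a2l lie inside the GENCODE gene, and those of Atp5g1 and Cox7a2 do so in part. They lie at chr11:96075632.0-96075881.0 (Atp5g1), chr15:102671048.0-102671297.0 (Atp5g2), chr2:73911327.0-73911576.0 (Atp5g3), chr6:24527691.0-24527940.0 (Ndufa5), chr9:79759854.0-79760103.0 (Cox7a2) and chr17:83514334.0-83514583.0 (Cox7a2l). Capitals mark matches to the NRF1 motif, which is GCGCA, any base and GCGC, on either strand.
Atp5g1: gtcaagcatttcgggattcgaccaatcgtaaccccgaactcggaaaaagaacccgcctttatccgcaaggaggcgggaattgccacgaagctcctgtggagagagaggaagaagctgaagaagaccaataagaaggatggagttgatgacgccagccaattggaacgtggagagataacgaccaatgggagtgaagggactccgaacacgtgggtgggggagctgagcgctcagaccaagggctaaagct
Atp5g2: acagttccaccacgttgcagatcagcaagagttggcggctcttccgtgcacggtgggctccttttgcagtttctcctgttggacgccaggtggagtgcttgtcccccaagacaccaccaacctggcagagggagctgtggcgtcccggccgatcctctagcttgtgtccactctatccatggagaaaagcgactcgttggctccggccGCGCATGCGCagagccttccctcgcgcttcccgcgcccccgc
Atp5g3: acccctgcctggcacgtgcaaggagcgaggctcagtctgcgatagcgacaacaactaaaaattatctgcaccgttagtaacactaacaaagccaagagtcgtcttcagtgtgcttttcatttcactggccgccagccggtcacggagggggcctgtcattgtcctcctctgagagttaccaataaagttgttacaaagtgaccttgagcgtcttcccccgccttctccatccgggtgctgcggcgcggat
Ndufa5: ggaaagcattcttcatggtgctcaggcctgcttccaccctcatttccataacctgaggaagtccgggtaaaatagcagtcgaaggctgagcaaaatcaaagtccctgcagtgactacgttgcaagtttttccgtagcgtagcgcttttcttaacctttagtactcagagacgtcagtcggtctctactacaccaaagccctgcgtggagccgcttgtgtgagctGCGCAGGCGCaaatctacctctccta
Cox7a2: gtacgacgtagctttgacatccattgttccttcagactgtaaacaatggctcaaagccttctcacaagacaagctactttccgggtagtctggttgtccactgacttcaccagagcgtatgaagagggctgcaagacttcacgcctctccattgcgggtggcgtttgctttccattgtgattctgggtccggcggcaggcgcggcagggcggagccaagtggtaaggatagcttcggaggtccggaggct
Cox7a2l: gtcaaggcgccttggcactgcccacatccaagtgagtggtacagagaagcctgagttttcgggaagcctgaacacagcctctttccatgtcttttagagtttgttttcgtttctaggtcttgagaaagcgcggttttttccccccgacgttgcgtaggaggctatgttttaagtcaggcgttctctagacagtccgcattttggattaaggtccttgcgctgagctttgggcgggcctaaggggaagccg
The matches start at position -42 in Atp5g2 and -26 in Ndufa5, counted from 0 at the gene's RefSeq start. Atp5g3 has a match at position 12, after the start and outside the printed bases, and no match was found for Atp5g1, Cox7a2 or Cox7a2l.

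NRF1 is known as a regulator of many respiratory chain genes, and ETS factors and YY1 bind near the start of many of them. Windows of 300 bases, 250 before and 50 after a RefSeq start, were found for 67 of the 85 genes. Some genes have several windows, and a gene was counted where any of its windows held a match. The NRF1 letters occurred in 17 of the 67 genes (25.4%), against 5.19% of all 27025 genes with a window, expressed here or not. The ETS letters CCGGAAG occurred in 16 (23.9%, against 9.93%) and the YY1 letters AAGATGGC in 9 (13.4%, against 3.19%), each on either strand. At least 1 of the 3 motifs was found for 36 genes (53.7%, against 16.4%). The mean GC content was 57.3% in the window of each subunit gene nearest its GENCODE start, against 53.6% over all genes. A match in letters is a description of the sequence and no evidence of binding.

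The subunit genes were highly expressed in all 6 libraries. The median of the 85 was 113, 89.4 and 90.4 FPKM in the naive, Treg and un-injected lymph node libraries and 107, 101 and 160.4 FPKM in the spleen libraries. Together they held 2.26%, 1.72% and 1.73% of the summed values in lymph node and 1.97%, 1.81% and 2.12% in spleen. The naive lymph node and the un-injected spleen libraries thus had the highest shares. The highest single level belonged to Cox4i1, the ubiquitous form of cytochrome c oxidase subunit 4 (ENSMUSG00000031818, chr8:120668222-120674207), at 742, 567 and 834 FPKM in the naive, Treg and un-injected lymph node libraries and 739.8, 654 and 1137 FPKM in the spleen libraries. Its row in the deposited table spans 4435366 bases and 73 other coding genes, so reads of other genes may be in it.

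By median level, complex V came before complex IV, then III, in all 6 libraries, with II and I at the low end. In the naive lymph node library the median subunit of complex V was at 277 FPKM, of IV at 272, of III at 136, of II at 116 and of I at 97.8 FPKM. In the un-injected spleen library the same medians were 330.3, 284, 174, 83.3 and 108 FPKM. The top genes of each complex were Ndufa3 and Ndufa1, small accessory subunits of complex I, Sdhb and Sdhd, Uqcrh and Uqcrb, Cox4i1 and Cox6b1, and Atp5e and Atp5b. Atp5b, the catalytic beta subunit of the ATP synthase (ENSMUSG00000025393, chr10:128083273-128090391), stood at 583, 338 and 327 FPKM in the naive, Treg and un-injected lymph node libraries and 522, 446 and 620.2 FPKM in spleen. Atp5e, the small epsilon subunit, stood at 479, 409 and 495 FPKM and 589, 590.1 and 967 FPKM in the same order. Both were highest in un-injected spleen, and in lymph node only Atp5b was highest with naive T cells.

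**Figure D1:**
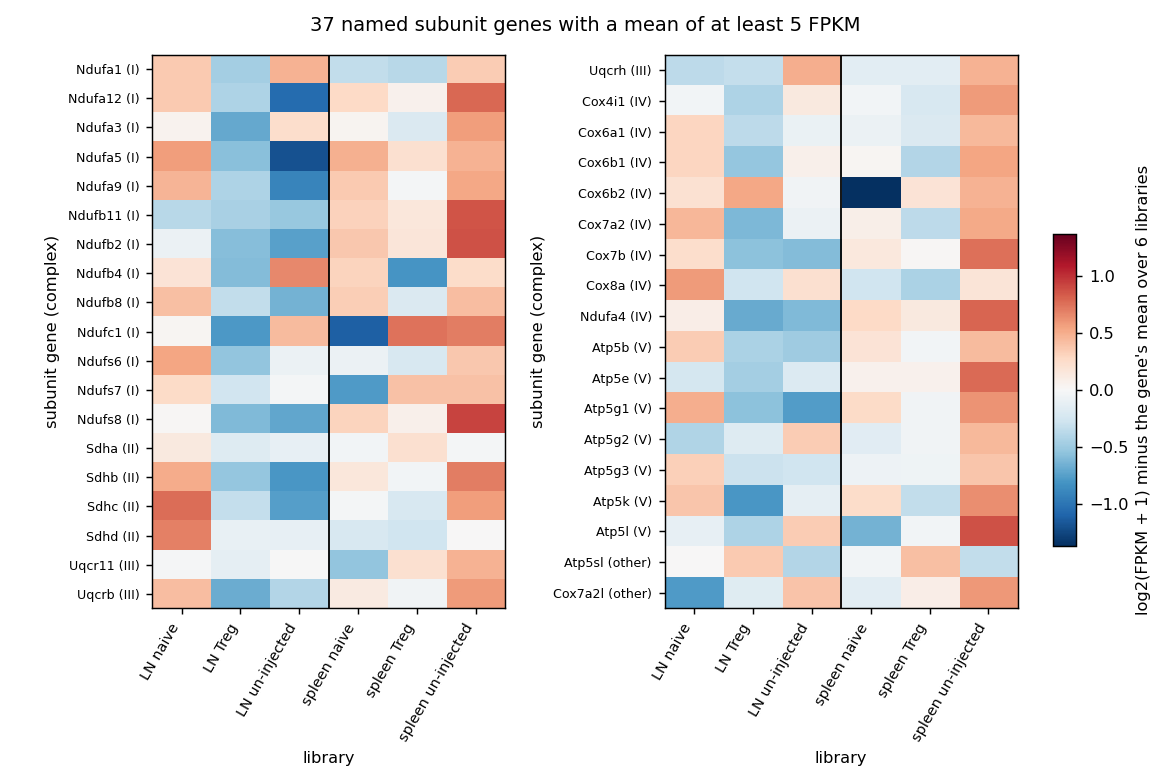
Heat map of the 37 named subunit genes with a mean of 5 FPKM or more (rows, complex in parentheses) in the 6 libraries (columns; LN, lymph node), with log2(FPKM + 1) minus the gene's own mean as colour. Most rows are highest in un-injected spleen, as 60 of the 81 measured subunits were (21.2% of all genes). In naive lymph node 11 of the 81 were highest (13.6%), below the 17.2% of all genes.

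Naive T cells went with higher subunit levels in the lymph node library and with lower ones in the spleen library. In lymph node the naive library lay above the un-injected one for 62 of 81 genes and below it for 19, against 49.2% and 50.3% of all genes. In spleen it lay above for 7 and below for 74 of 81, against 46.6% and 52.7%. The median log2 ratio for naive against un-injected (of FPKM + 0.5, which understates the change of low genes) was 0.38 in lymph node and -0.51 in spleen, where the medians of all genes were -0.00 and -0.04. Both directions met in the same genes: 56 of 81 were higher in lymph node but lower in spleen, a pattern of 27.6% of all genes. Lower in both tissues were 18 (24.8% of all genes), higher in both were 6 (21.5%), and 1 showed the reverse (24.9%). No test of these ratios is possible with 1 library each, and the difference between the tissues was not tested.

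The differences were moderate in size. In lymph node 27 of 81 were at least 1.5-fold higher with naive T cells, against 27.7% of all genes, and 4 were at least 1.5-fold lower, against 27.3%. At 2-fold the counts were 10 higher (16.9% of all genes) and 2 lower (16.6%). Higher ratios in lymph node thus made up 33.3% of the subunits at 1.5-fold, above the share in all genes, and 12.3% at 2-fold, below it. Lower ratios were rarer than in all genes, at 4.94% and 2.47%. It was mainly the side on which the subunits lay that set them apart from the background. In spleen 27 were at least 1.5-fold lower (16.1% of all genes) and 1 higher (13.5%), and 8 were at least 2-fold lower (6.01%) against 1 higher (4.5%).

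**Figure D2:**
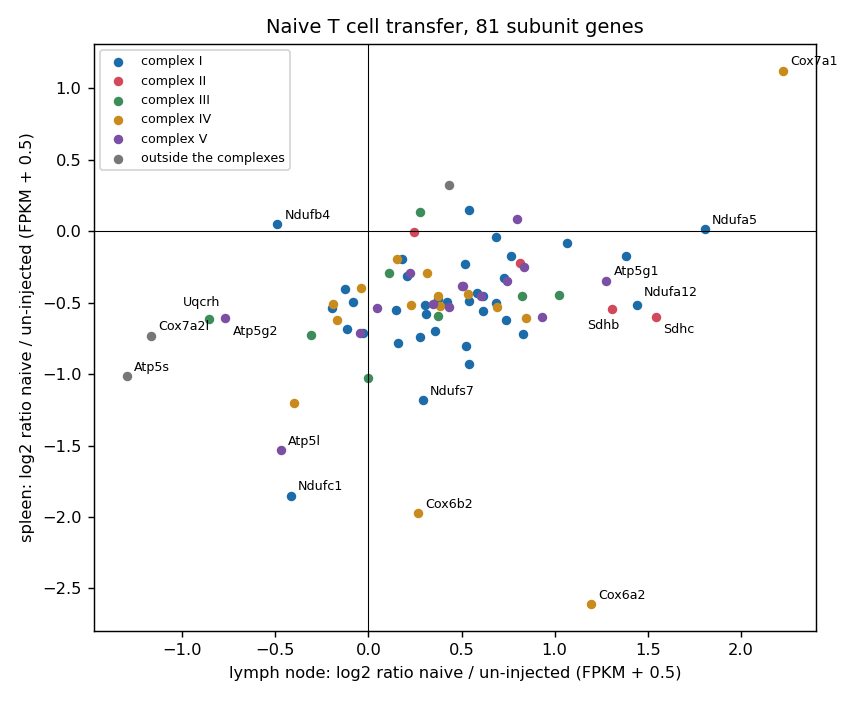
Each point is 1 of 81 subunit genes, with the log2 ratio of naive to un-injected in lymph node on the x axis and in spleen on the y axis, coloured by complex. The lower right quadrant, above 0 in lymph node and below 0 in spleen, holds 56 genes.

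Several measured properties of the libraries moved with these ratios. The monocyte markers were summed to 12035 FPKM in the naive lymph node library, against 339.9 FPKM in the un-injected one, and the genes of mature or migratory dendritic cells to 3003 against 17178 FPKM. In spleen the neutrophil markers summed to 31.6 FPKM with naive T cells, against 841 FPKM without injection, and erythroid markers to 129 against 626 FPKM. With Treg the erythroid sum in spleen was 429 FPKM, nearer the un-injected one. Markers of proliferating cells summed to 167, 157 and 127 FPKM in the naive, Treg and un-injected lymph node libraries. Their spleen sums were 419, 287 and 463 FPKM in that order. All these sums are of marker genes. The part of these markers in the results was not tested. Transcript length also moved with the spleen ratios: the subunits are short, with a median principal transcript of 838 bases against 2810 over all genes. Among genes under 1000 bases the naive to un-injected median in spleen was -0.49 over 769 genes and -0.53 over 50 subunits. Among longer genes it was -0.01 over 9770 genes and -0.45 over 31 subunits, 28 of which were lower. In lymph node the medians of all genes were 0.03 for short and -0.01 for longer genes, and those of the subunits 0.30 and 0.54, with 29 of the 31 longer ones higher. With values scaled to the library total the spleen median of the subunits was -0.12 while that of all genes was 0.31, a distance of -0.43 in place of -0.47. On that scale 55 of 81 subunits were lower with naive T cells in spleen, 8 of them at least 1.5-fold, and 68 were higher in lymph node. The lymph node median of all genes was then 0.09 and that of the subunits 0.50. Shares of all genes on that scale are not given, here or below, so its counts have no background beside them.

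With Treg the subunits were lower than in un-injected mice in spleen and lay close to them in lymph node. In spleen 76 of 81 were below the un-injected library (52.2% of all genes), with a median log2 ratio of -0.59, and 42 were at least 1.5-fold lower (17.3%) against 1 higher (14.4%). At 2-fold 3 were lower (5.87% of all genes) and 0 higher (4.51%). In lymph node 52 were below it (51% of all genes), with a median of -0.10, and 10 were at least 1.5-fold lower (18.2%) against 5 higher (21.1%). At 2-fold 3 were lower there (6.91%) and 1 higher (11.4%). Scaled to library totals the lymph node median was 0.20, so its direction depends on the scale, while its distance from all genes stayed at -0.05 against -0.08. In the 31 longer transcripts the lymph node median was 0.04, and in the 50 shorter ones -0.27. Over all genes it was -0.24 in the 769 shorter and -0.00 in the 9770 longer ones. In spleen the median of the 769 shorter genes was -0.58 and that of the 9770 longer genes -0.00, against -0.62 in the 50 shorter subunits and -0.53 in the 31 longer ones, 29 of which were lower. With library totals the spleen median was -0.20, 60 of 81 were lower and 5 at least 1.5-fold lower, while the median of all genes was 0.31. Lower with Treg in both tissues were 49 of 81 (28.1% of all genes). Both spleen comparisons share the un-injected spleen library, which held the highest of the 6 values for 60 of 81 subunits (21.2% of all genes).

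The direct comparison of both transfers leaves the un-injected libraries out. In lymph node 72 of 81 subunits were higher with naive T cells than with Treg (48.5% of all genes), with a median log2 ratio of 0.62 and 44 at least 1.5-fold higher (19.3%) against 3 lower (22.6%). At 2-fold 9 were higher (9.3% of all genes) and 1 lower (11.4%). In spleen 55 of 81 were higher (48.9% of all genes), with a median of 0.14, 5 at least 1.5-fold higher (10.6%) and 5 lower (11%). Higher with naive T cells than with Treg in both tissues were 52 (27% of all genes), and for 45 both naive libraries lay above both Treg libraries (15.3%). The median kept its sign at longer transcripts, where it was 0.55 in lymph node with 27 of 31 higher, and 0.15 in spleen. In the 50 shorter subunits the lymph node median was 0.64. Over all genes it was 0.23 in the 769 shorter ones and -0.04 in the 9770 longer ones. With library totals the lymph node median was 0.45, with 67 higher and 29 at least 1.5-fold higher, while the median of all genes was -0.18, and the spleen median was 0.14 again. The monocyte markers stood at 12035 FPKM with naive T cells and 1732 FPKM with Treg in lymph node, but at 2541 and 2425 FPKM in spleen.

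**Figure D3:**
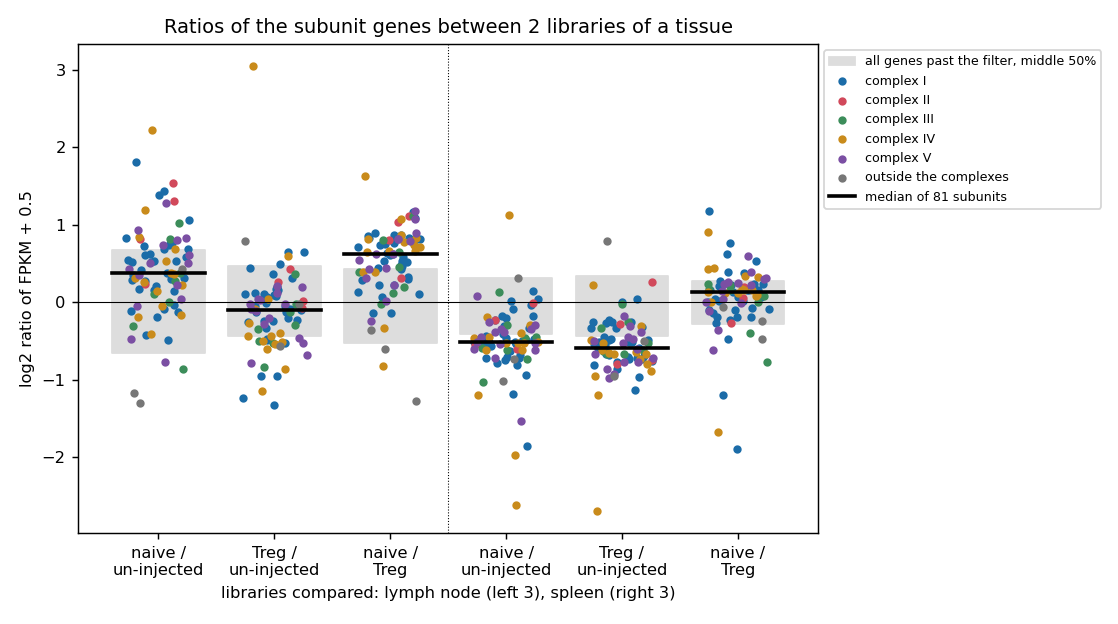
Log2 ratios of FPKM + 0.5 for the 81 subunit genes in the 6 within-tissue comparisons, each point a gene, coloured by complex. Black bars are the medians of the subunits and grey boxes the middle 50% of all genes. The medians run from 0.62 for naive against Treg in lymph node to -0.59 for Treg against un-injected in spleen.

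The model over both tissues called no subunit. It was a limma fit of log2(FPKM + 1) on transfer and tissue over the 6 libraries, which leaves 2 residual degrees of freedom, and its p-values then rest on the agreement of both tissues and not on the spread between mice. For naive against un-injected, limma called 0 of 81 subunits and 0 of 10818 genes (0%) at an adjusted p of 0.05, with 4 subunits lower and 0 higher at an unadjusted p under 0.05 (3.82% and 3.44% of all genes). The median model difference of the subunits was -0.04, between the opposite values of the tissues. For Treg against un-injected it also called 0 of 81 and 0 of all genes (0%), with 8 lower and 1 higher unadjusted (2.78% and 1.91%). The median was -0.34, and 75 of 81 differences were below 0 (50.6% of all genes). For naive against Treg, limma again called 0 of 81 and 0 of all genes (0%), with 2 subunits higher and 0 lower unadjusted (2.04% and 1.38%). The median was 0.36, with 68 of 81 above 0 (48.4%). Single libraries turned some of these medians: the one for naive against un-injected was 0.33 without the naive and 0.29 without the un-injected spleen library, and the one for naive against Treg -0.0147 without the naive lymph node library. The one for Treg against un-injected was 0.0044 without the un-injected spleen library. The smallest adjusted p of a subunit in limma was 0.661, 0.938 and 0.963 for naive against un-injected, Treg against un-injected and naive against Treg.

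The lymph node libraries had lower subunit levels than the spleen libraries, mostly in un-injected mice. There 74 of 81 were lower in lymph node (51.1% of all genes), with a median log2 ratio of -0.66, and 48 were at least 1.5-fold lower (32.5%). With Treg 71 were lower (50% of all genes) and the median was -0.29. With naive T cells the order turned: 61 of 81 were higher in lymph node (52.8%), with a median of 0.11. With library totals the medians were 0.18 with naive T cells, -0.04 with Treg and -0.32 in un-injected mice, and those of all genes 0.11, 0.23 and 0.27. On that scale 25 were at least 1.5-fold lower in un-injected mice, and with Treg 47 were lower and 34 higher. In the model 73 of 81 differences were below 0 (49.7% of all genes) and 8 above (50.3%), with a median of -0.28, and limma called 0 of 81 subunits, against 74 genes or 0.684% of all. Unadjusted, 5 were lower and 1 higher (12.1% and 13.2%), and the smallest adjusted p was 0.122 in limma. It belonged to Ndufb11, an accessory subunit of the membrane arm of complex I, at 111, 106 and 100.4 FPKM in the naive, Treg and un-injected lymph node libraries and 181, 161 and 265 FPKM in the spleen libraries (-0.89 ± 0.25, SE). Its lymph node values all lay below its spleen values, which held for 8 of 81 subunits and 16.4% of all genes. Ndufb2, another of the membrane arm, had 50.9, 35.4 and 31.5 FPKM in lymph node and 69.7, 60.4 and 99.2 FPKM in spleen, also without overlap. The rows of Ndufb11 and Ndufb2 overlap other coding genes.

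Complex I takes electrons from NADH through a set of core subunits, Ndufs7 and Ndufs8 among them, while most of the Nduf genes encode accessory subunits. Its 36 genes had, for naive against un-injected, a median of 0.47 in lymph node, with 29 higher, and -0.50 in spleen, with 33 lower. With library totals the spleen median was -0.11, with 25 lower. Ndufa5, an accessory subunit of the matrix arm (ENSMUSG00000023089, chr6:24518666-24528013), was at 47.9, 21.1 and 13.3 FPKM in the naive, Treg and un-injected lymph node libraries and 45.2, 37.3 and 44.8 FPKM in the spleen libraries. The un-injected lymph node value stood below the other 5, and naive was 3.50-fold of un-injected in lymph node but 1.01-fold in spleen. Ndufa12, a small accessory subunit, had 56.3, 32.4 and 20.4 FPKM in lymph node and 53.1, 45.6 and 76.02 FPKM in spleen, with the same low un-injected lymph node value. Ndufa9, which sits near the junction of the arms, had 104, 55.97 and 39.7 FPKM and 96.9, 74.1 and 109 FPKM in the same order, and Ndufb8, of the membrane arm, 209, 123 and 99.3 FPKM and 198, 137 and 210.0 FPKM. In lymph node naive was 2.61-fold of un-injected for Ndufa9 and 2.09-fold for Ndufb8, and in spleen 0.89-fold and 0.95-fold.

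The core subunits Ndufs7 and Ndufs8, which carry iron-sulfur clusters near the ubiquinone site, parted in spleen. Ndufs7 was at 38.1 FPKM in the naive spleen library, against 87.5 and 87.1 FPKM in the Treg and un-injected ones, and at 79.1, 54.5 and 64.5 FPKM in lymph node. Ndufs8 was at 78.4, 66.7 and 121 FPKM in the naive, Treg and un-injected spleen libraries, high in the last alone, and at 64.03, 41.4 and 38.2 FPKM in lymph node. Ndufc1, a small accessory subunit of the membrane arm, had its lowest value in naive spleen too, with 20.2, 76.5 and 74.2 FPKM there, in Treg spleen and in un-injected spleen, and 46.0, 25.8 and 61.6 FPKM in lymph node. In lymph node its lowest value was with Treg, so naive was 1.77-fold of Treg there and 0.27-fold in spleen. Ndufb4, another of the membrane arm, was at least 2-fold lower with Treg in both tissues, at 11.5, 6.26 and 16.4 FPKM in lymph node and 12.6, 5.29 and 12.1 FPKM in spleen. Both Treg values lay below the other 4, with a model difference of -1.16 ± 0.31 (SE), a p of 0.0108 and an adjusted p of 0.938 in limma. Ndufs6, a zinc-binding accessory subunit, stood with naive T cells at 2.12-fold of its Treg level in lymph node. The 2 most abundant, Ndufa1 and Ndufa3, were slightly lower with naive T cells than in un-injected mice in lymph node, at 250.04 against 271 FPKM and at 202 against 232 FPKM.

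Complex II had the highest naive to un-injected median of the complexes in lymph node, 1.06 over its 4 genes, against -0.39 in spleen, where the median was 0.0041 with library totals. Sdhc, 1 of the 2 membrane anchors (ENSMUSG00000058076, chr1:171127165-171150603), was at 85.01, 39.2 and 28.8 FPKM in the naive, Treg and un-injected lymph node libraries and 48.6, 42.4 and 73.98 FPKM in spleen. Sdhb, the iron-sulfur subunit (ENSMUSG00000009863, chr4:140961203-140979193), was at 148, 71.6 and 59.3 FPKM and 116, 101 and 169 FPKM in the same order. Naive was 2.92-fold of un-injected in lymph node for Sdhc and 2.48-fold for Sdhb, and 0.66-fold and 0.68-fold of it in spleen. Sdhd, the other anchor, had 149, 85.5 and 84.7 FPKM in lymph node and 79.1, 76.1 and 92.6 FPKM in spleen, so the naive lymph node library stood above the other 5. Sdha, the flavoprotein that binds succinate, was the steadiest of the 77 subunits with a mean of 5 FPKM or more, at 80.6, 64.7 and 68.05 FPKM in lymph node and 71.6, 86.01 and 71.9 FPKM in spleen, a 1.33-fold range.

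Complex III showed the smallest lymph node difference among the complexes, with a naive to un-injected median of 0.19 over 8 genes and 5 higher, and a spleen median of -0.52, or -0.13 with library totals. Uqcrh, the hinge protein that holds cytochrome c1 to cytochrome c (ENSMUSG00000063882, chr4:116066965-116075071), was lower in all transfer libraries, at 397, 405 and 720.0 FPKM in the naive, Treg and un-injected lymph node libraries and 462, 459 and 706 FPKM in the spleen libraries. The 4 transfer values did not overlap the 2 un-injected ones. Its model difference was -0.73 ± 0.23 for naive and -0.72 ± 0.23 for Treg against un-injected (SE), with adjusted p values of 0.661 and 0.938 in limma. Uqcrb, a small ubiquinone-binding subunit whose row overlaps other coding genes, followed the order of most subunits, at 303, 140.0 and 171 FPKM in lymph node and 246, 218 and 338 FPKM in spleen. Uqcr11 was near level in lymph node, with 114, 105 and 114 FPKM, and low in naive spleen, with 78.6, 134 and 160.4 FPKM in the naive, Treg and un-injected spleen libraries.

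Complex IV has forms of several subunits that differ by tissue, and the dendritic cells expressed mainly the ubiquitous ones. Its 15 measured genes had a naive to un-injected median of 0.31 in lymph node, against -0.52 in spleen, or -0.13 there with library totals. Cox6a1, the ubiquitous form, was at 447, 284 and 343 FPKM in lymph node and 345, 318 and 498 FPKM in spleen. Cox6a2, the heart and skeletal muscle form, was at 3.59, 0.818 and 1.28 FPKM and 1.05, 0.963 and 8.95 FPKM, highest in un-injected spleen. It is also 1 of 6 listed markers of plasmacytoid dendritic cells. Of the others, Siglech (13.7 FPKM) and Ly6d (20.8 FPKM) were highest in un-injected spleen too, while Bst2, Tcf4 and Ccr9 were highest in lymph node libraries. A link between them was not tested. Cox6b1 was at 559, 315 and 478 FPKM and 464, 344 and 666 FPKM. The testis form Cox6b2 was at 12.9, 16.4 and 10.7 FPKM and 3.65, 12.7 and 15.8 FPKM, lowest in naive spleen by more than 2-fold. Cox8a was at 308, 169 and 238 FPKM and 169, 151 and 232 FPKM, while Cox8b and Cox8c were listed at 0 in all 6 libraries, as was Cox7b2 beside Cox7b. Cox4i2, the form of lung and low oxygen, reached at most 2.04 FPKM, in un-injected lymph node, and Cox7a1, the heart and muscle form, at most 4.23 FPKM, in naive spleen. Ndufa4, counted here with complex IV, was at 261, 151 and 161 FPKM and 297, 269.7 and 428 FPKM, while Ndufa4l2, induced by low oxygen, was above 0 in un-injected lymph node alone, at 0.721 FPKM. The ubiquitous forms thus outweighed the others in each library, by per-length level.

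Cox7a2 and its relative Cox7a2l had different orders of the 3 states. Cox7a2, the common subunit 7a (ENSMUSG00000032330, chr9:79755361-79759878), was at 272, 128 and 187 FPKM in the naive, Treg and un-injected lymph node libraries and 209, 154 and 284 FPKM in spleen. Cox7a2l (ENSMUSG00000024248, chr17:83501918-83517330) is known as a factor in supercomplexes of complexes III and IV, a role not measured here. It was at 127, 194 and 286 FPKM and 198, 233 and 329 FPKM in the same order. In both tissues Cox7a2l was lowest with naive T cells and highest in un-injected mice. Naive was 0.44-fold of un-injected in lymph node and 0.60-fold in spleen, with a model difference of -0.95 ± 0.26 (SE), a p of 0.0125 and an adjusted p of 0.661 in limma. Cox7a2 was lowest with Treg in both tissues instead, with a model difference for naive against Treg of 0.76 ± 0.32 (SE) and an adjusted p of 0.963 in limma. The 2 upstream sequences printed above hold no match to the 3 motifs.

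The 15 genes of complex V had a naive to un-injected median of 0.51 in lymph node, against -0.45 in spleen (-0.06 with library totals), and a naive to Treg median of 0.62 and 0.23. Its subunit c, the rotating ring of the ATP synthase, is made from 3 genes whose proteins differ only in the import sequence that is cut off. Atp5g1 (ENSMUSG00000006057, chr11:96068852-96075670) was at 181, 85.8 and 74.2 FPKM in the naive, Treg and un-injected lymph node libraries and 153, 123 and 195 FPKM in spleen. Atp5g2 (ENSMUSG00000062683, chr15:102662864-102672352) was at 134, 159 and 229 FPKM and 161, 174 and 246 FPKM. Atp5g3 (ENSMUSG00000018770, chr2:73908447-73911326) was at 333, 216 and 219 FPKM and 252, 254 and 345 FPKM. In lymph node Atp5g1 and Atp5g3 were highest with naive T cells while Atp5g2 was lowest there.

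As a share of the 3 genes' summed FPKM, Atp5g1 held 27.8%, 18.6% and 14.2% in the naive, Treg and un-injected lymph node libraries and 27.0%, 22.3% and 24.8% in spleen. Atp5g2 held 20.7%, 34.6% and 43.9% in lymph node and 28.4%, 31.6% and 31.3% in spleen. Atp5g3 stayed between 41.9% and 51.4% in all 6. The mix in un-injected lymph node thus stood apart, with Atp5g2 ahead of Atp5g3 by a narrow margin, and in the other 5 libraries Atp5g3 led. These shares do not depend on library scaling, but how the deposited estimates divided reads that fit more than 1 of the genes, or their processed copies, is not known here.

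**Figure D4:**
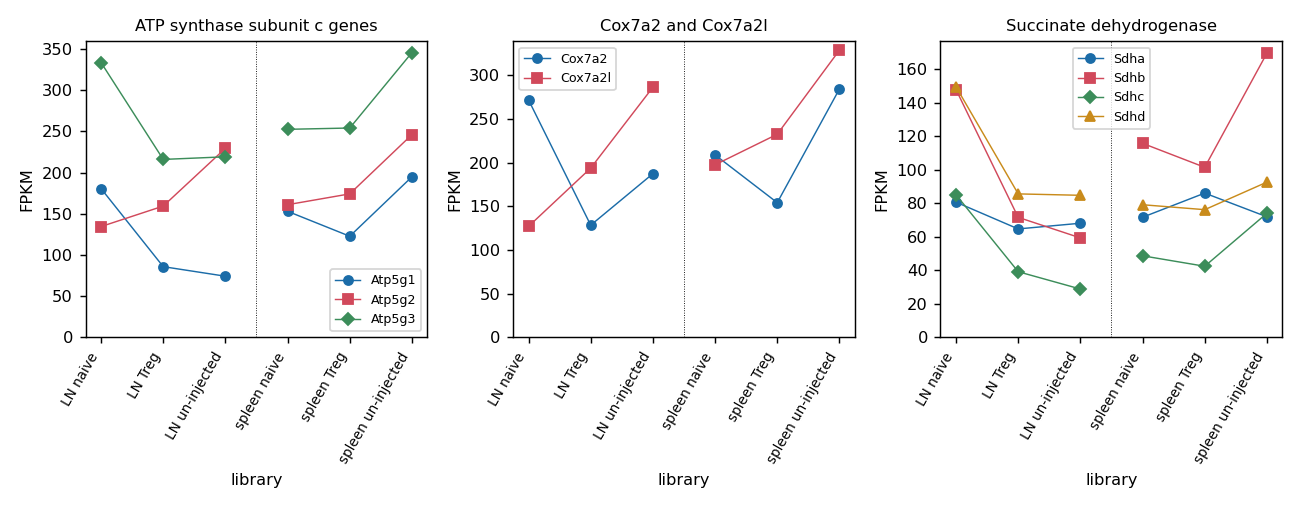
Levels in FPKM (y axes, from 0) of the Atp5g genes, of Cox7a2 and Cox7a2l and of the Sdh genes in the 6 libraries (x axes; LN, lymph node); each point is 1 library, and lines only join a gene's points within a tissue. Atp5g2 and Cox7a2l are lowest in naive lymph node among the lymph node libraries, at 134 and 127 FPKM, where Atp5g1, Atp5g3, Cox7a2 and the Sdh genes are highest.

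Among the small subunits e and g of the ATP synthase, which sit where its dimers join, Atp5k (subunit e) was at 566, 249 and 398 FPKM in the naive, Treg and un-injected lymph node libraries and 519, 343 and 677 FPKM in spleen. It was lowest with Treg in both tissues, with a model difference for naive against Treg of 0.89 ± 0.30 (SE) and an adjusted p of 0.963 in limma. Atp5l (subunit g) was at 65.97, 53.1 and 91.7 FPKM and 45.4, 69.8 and 132 FPKM, highest in un-injected mice in both tissues and lowest in naive spleen. Its model difference for naive against un-injected was -0.996 ± 0.36 (SE), with an adjusted p of 0.661 in limma. Atp5sl, which the GENCODE annotation names Dmac2 and which is known as a complex I assembly protein, was at 10.9, 14.2 and 7.96 FPKM and 10.5, 14.8 and 8.34 FPKM, highest with Treg in both tissues.

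Other genes of the pathway and of mitochondria were read beside the subunits. For naive against un-injected the medians in lymph node and spleen were 0.29 and -0.19 for 44 assembly factors of the complexes, 0.51 and -0.46 for 12 subunits and partners outside the symbol rule, 0.65 and -0.19 for 18 genes of the tricarboxylic acid cycle, and 0.35 and -0.33 for 77 genes of the mitochondrial ribosome. The opposite signs in the tissues were thus shared by these lists on the deposited scale. With library totals the spleen medians were 0.18, -0.07, 0.20 and 0.06 in the same order, against 0.31 over all genes, so 3 of the 4 lay above 0 but below all genes. Genes of glycolysis, 20 in number, had medians of 0.93 and -0.35, and 34 proteasome genes 0.54 and -0.23, and in spleen 0.04 and 0.16 with library totals. The 83 cytosolic ribosomal protein genes were lower in both, at -0.54 and -0.68, and the 15 regulators of mitochondrial biogenesis were at 0.18 and 0.17. For Treg against un-injected the medians were -0.15 and -0.11 for assembly factors, -0.41 and -0.55 for genes outside the rule, 0.11 and -0.25 for the cycle, -0.10 and -0.36 for the mitochondrial ribosome and 0.36 and -0.47 for glycolysis. With library totals those of the assembly factors were 0.13 and 0.23, of the cycle 0.40 and 0.14 and of the mitochondrial ribosome 0.19 and 0.03, while the signs of the genes outside the rule and of glycolysis stayed. Levels higher with naive T cells than with Treg in lymph node were shared by most of these lists. The medians there were 0.20 for assembly factors, 0.62 for genes outside the rule, 0.49 for the cycle and 0.42 for the mitochondrial ribosome. They were 0.95 for glycolysis and 0.70 for the proteasome, whose 34 genes were all higher. Cytosolic ribosomal protein genes were at -0.20 and the biogenesis regulators at 0.02.

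Of the 313 measured genes of these and the remaining lists, 0 passed an adjusted p of 0.05 in limma for any transfer contrast. At an unadjusted p under 0.05, 7 were higher and 56 lower for naive against un-injected (3.44% and 3.82% of all genes), and 50 of the 56 were cytosolic ribosomal protein genes. For Treg against un-injected 2 were higher and 30 lower (1.91% and 2.78%), 21 of the 30 being cytosolic ribosomal protein genes, and for naive against Treg 5 were higher and 4 lower (2.04% and 1.38%). For lymph node against spleen 11 were higher and 98 lower at an unadjusted p under 0.05 (13.2% and 12.1% of all genes). Of the 98, 72 were cytosolic ribosomal protein genes. In that contrast 1 of the 313 passed an adjusted p of 0.05, against 74 genes or 0.684% of all. It was Mdh2, the malate dehydrogenase of the cycle, lower in lymph node (model difference -1.91 ± 0.23, SE, adjusted p = 0.048 in limma). Mdh2 stood at 173, 94.3 and 70.3 FPKM in the naive, Treg and un-injected lymph node libraries, against 501, 372 and 335 FPKM in spleen. The fit called 0 of all genes without either Treg library. Cycs, which encodes the cytochrome c that links complexes III and IV, was at 57.1, 25.1 and 16.8 FPKM in lymph node and 58.4, 46.8 and 85.2 FPKM in spleen. Slc25a5, an ADP/ATP carrier, was at 483, 277 and 237 FPKM and 498, 446 and 610.4 FPKM. Atpif1, the inhibitor of the ATP synthase, was highest in un-injected mice of both tissues, at 192, 198 and 386 FPKM and 336, 296 and 600.2 FPKM. Fh1, the fumarase that acts after complex II, was at 109, 53.1 and 13.5 FPKM and 52.8, 53.1 and 59.8 FPKM, with the un-injected lymph node value lowest as for Sdhc and Sdhb. Cox17, a copper chaperone of complex IV, followed another order, at 168, 109 and 199.7 FPKM and 100.5, 150.3 and 140.2 FPKM.

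Of glycolysis, Ldha, the lactate dehydrogenase A chain, was at 388, 214 and 91.8 FPKM in the naive, Treg and un-injected lymph node libraries and 439, 414 and 635 FPKM in spleen, and Gapdh at 1012, 549 and 748 FPKM and 789.7, 648 and 890.0 FPKM. Hk3, a hexokinase of myeloid cells, was at 65.6, 4.28 and 2.77 FPKM and 21.6, 18.6 and 27.95 FPKM. Of the regulators, Tfam, the factor that packs and transcribes mitochondrial DNA, was higher with naive T cells than with Treg or in un-injected mice in both tissues, at 19.01, 10.9 and 12.3 FPKM and 18.7, 12.3 and 16.2 FPKM. Gabpb1, a partner of an ETS factor, was at 26.4, 27.5 and 46.3 FPKM and 31.6, 24.5 and 26.8 FPKM, and Yy1 at 23.1, 19.6 and 22.5 FPKM and 20.6, 21.9 and 14.2 FPKM. Myc, a driver of growth genes, was lowest in un-injected mice of each tissue, at 5.18, 5.92 and 0.664 FPKM and 9.02, 12.9 and 5.16 FPKM.

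**Figure D5:**
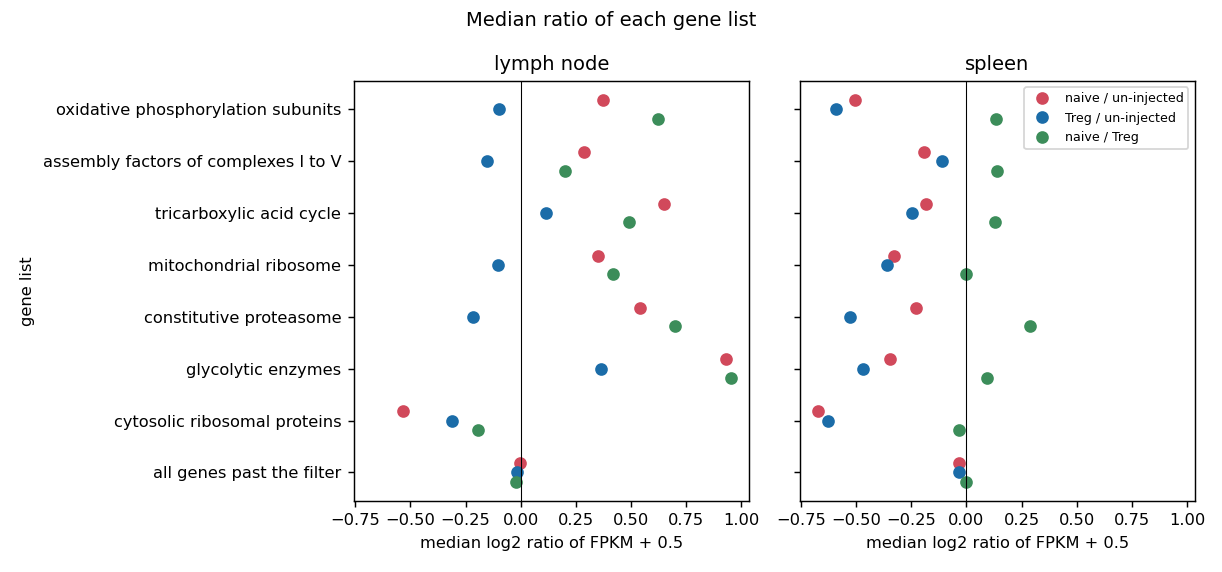
Median log2 ratio (FPKM + 0.5) of the subunits, of 6 other gene lists and of all genes (y axis) in the 6 within-tissue comparisons. The subunits are at 0.38 for naive against un-injected in lymph node and -0.51 in spleen, and all genes near 0.

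The authors' deposited tables compare 1 library with another. Tested loci were counted here where the p-value in those tables was at most 0.01 and the 2 values differed at least 2-fold. By this count 0 subunits passed in any of the 6 within-tissue comparisons, of 77 or 78 tested in each. The share of all loci that passed was 3.46% for naive and un-injected lymph node. It was 0.717% for Treg and un-injected lymph node and 1.18% for naive and Treg lymph node. In spleen the shares were 0.104%, 0.155% and 0.0779% for the same pairs. The smallest p-value of a subunit in the authors' deposited tables was 0.0917, for Ndufa5 in the naive and un-injected lymph node pair, with a q-value of 0.999.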

How the data were processed

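The authors deposited 1 table of all 6 libraries, treated here as FPKM; its header names no unit, and the values are fractional with unequal sums. Another 6 tables that the authors deposited set 1 library against another, and their p-values and q-values, so named per the file headers, were used without the fold changes. Per the submitters' processing notes RSEM, edgeR 3.16.5, GRCm38.p4 and mm10 had a place in this work, which the notes do not specify. Library depth is unknown, so no counting error could be derived.

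Members and gene lists were chosen with earlier results of these data known. Values of symbols with several lines (38) were summed. Genes reaching 1 FPKM in at least 2 libraries entered limma 3.58.1 under R 4.3.3 as log2(FPKM + 1) with its trend option, additive in transfer and tissue, adjusted after Benjamini-Hochberg over all 10818 genes. The fit was tested on simulated data with independent noise and a naive shift that was the same in both tissues. Such data do not hold the opposite shifts seen here, so that test says nothing about them. Within-tissue ratios use FPKM + 0.5 and have no test. Gene coordinates are from the GENCODE annotation of GRCm38 (mm10), matched for all 85 genes by identifier and for 84 by name. Those of the printed sequences are from RefSeq. The rows of 27 genes overlap another coding gene. Of the genes named in the text these include Cox4i1, Cox6a2, Ndufa3, Ndufa4l2, Ndufb2, Ndufb8, Ndufb11, Ndufs6, Uqcrb and Atp5sl. Named subunits are the 2 highest of each complex, the 3 largest and smallest model differences per contrast and 2-fold ratios (at most 5 a direction) among those with a mean of 5 FPKM or more, the Sdh genes and the isoform sets. Of each other list they are the 2 highest and the largest model difference per contrast, and a part of these is printed. Alternatives were other pseudocounts, no filter, median-ratio and library-total scaling, single-factor and trend-free fits and leaving out each library. Subsets of longer transcripts and of loci with no other coding gene were added after the data were seen.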

Additional observations from a re-analysis of the deposited data

Results flagged for a closer look

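The values below were picked out because the 2 tissues moved in opposite directions under the same contrast; each rests on 1 library a group, and the difference between the tissues was not tested. The subunits as a set had, for naive against un-injected, medians on the log2 scale of 0.38 in lymph node and -0.51 in spleen. Among single subunits with that pattern, Sdhc was at 1.54 in lymph node and -0.60 in spleen, Cox7b at 0.85 and -0.61, and Ndufs8 at 0.74 and -0.62. For Treg against un-injected, Ndufa12 was at 0.65 in lymph node and -0.73 in spleen. For naive against Treg, Ndufc1 was at 0.82 in lymph node and -1.89 in spleen.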

How the results depend on the processing

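Scaled to library totals, where the all-gene medians of the within-tissue ratios lay as high as 0.31, the model median of the subunits was 0.21 for naive against un-injected (main value -0.04) and -0.0056 for Treg against un-injected, and limma called 23 genes for lymph node against spleen. The lymph node median was then 0.20 for Treg against un-injected, and the spleen medians -0.12 for naive and -0.20 for Treg against un-injected. In lymph node the Treg to un-injected median was 0.037 in transcripts of 1000 bases or more. The number of genes limma called for lymph node against spleen was 2 without the trend, 0 without the filter, 311 with tissue alone and 38 with a pseudocount of 0.1. Without the trend it was 2 for Treg against un-injected and 2 for naive against Treg. The causes were not tested.

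Leaving out each library in turn, limma called 0 to 382 genes for naive against un-injected, 0 to 17 for Treg against un-injected, 0 to 104 for naive against Treg and 0 to 1471 for lymph node against spleen. The model medians of the subunits ran from -0.37 to 0.33, from -0.68 to 0.0044, from -0.0147 to 0.67 and from -0.47 to -0.08 for the same contrasts. For naive against un-injected limma called 382 genes without the naive spleen library and 188 without the un-injected one. For Treg against un-injected it called 17 without the un-injected spleen library, and for naive against Treg 104 without the naive one. For lymph node against spleen it called 0 without either Treg library, 1471 without the naive lymph node library, 1449 without the naive spleen library, 304 without the un-injected lymph node library and 265 without the un-injected spleen library. Single genes that turned sign gave ranges of -0.60 to 0.89 for Cox6b2 and -0.48 to 0.84 for Ndufa5 in Treg against un-injected, -0.0902 to 0.965 for Cox6b2 in lymph node against spleen, -1.55 to 0.49 for Ndufc1 in naive against Treg, and -0.0451 to 1.25 for Ndufa9 and -0.0271 to 1.01 for Ndufb8 in naive against un-injected. No paired analysis was possible because each group holds 1 library, whose replicate number is only a name.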

Other observations

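Genes that let electrons or protons bypass part of the chain were mixed. Of the 9 measured genes of uncoupling and alternative electron entry, 6 were higher with naive T cells than in un-injected mice in lymph node (median log2 ratio 0.18) and 3 in spleen (median -0.11, but 0.28 with library totals), and all 9 were lower with Treg in spleen (median -0.26, but 0.11 with library totals). Ucp2, an uncoupling protein of the inner membrane that is common in immune cells, was at 843, 819.9 and 758 FPKM in the naive, Treg and un-injected lymph node libraries and 738, 1169 and 1298 FPKM in spleen, lowest with naive T cells there. Etfb, a subunit of the flavoprotein that carries electrons from fatty acid oxidation to ubiquinone, was at 91.7, 79.6 and 41.6 FPKM and 110.3, 84.05 and 119.5 FPKM, with the un-injected lymph node value lowest, as it was for Sdhb and Ndufa5. Sqrdl, which passes electrons from sulfide to ubiquinone, was at 18.8, 1.44 and 3.13 FPKM and 5.89, 7.98 and 11.5 FPKM, and naive lymph node was the highest.

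The genes of the mitochondrial ribosome, which makes the mitochondrially encoded subunits, lay above un-injected in naive lymph node for 50 of 77 and below it in naive spleen for 66 of 77 (32 of 77 with library totals). Mrps18b was at 20.2, 12.97 and 2.82 FPKM in the naive, Treg and un-injected lymph node libraries and 26.01, 23.5 and 35.9 FPKM in spleen, and Mrpl33 at 125, 57.4 and 54.8 FPKM and 187, 133 and 233 FPKM. Mrpl14 went another way in lymph node, at 94.3, 68.9 and 173 FPKM there and 41.7, 54.3 and 94.2 FPKM in spleen. Of the 13 mitochondrially encoded subunits themselves, 11 are listed at 0 in every library, mt-Nd3 at 3.45 FPKM in naive spleen alone, and mt-Co3 at 0, 0.937 and 2.99 FPKM in lymph node and 1.06, 0 and 0 FPKM in spleen, so the table does not measure them.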
